A study of Mus musculus with 7 samples.

Results

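The genes described here are the mouse genes named as opposite-strand (os) genes, that is, rows of the deposited count table whose symbol consists of another gene's symbol followed by os, os1, os2, os3 or os4. Of 48440 rows in the table, 321 symbols had such an ending. Of these, 25, among them the oncogene Fos, had no row for the symbol without the ending and were left out. Another 5 rows (Pcsk2os1, Pcsk2os2, Runx2os1 and both rows of Nkx2-2os) were set aside by name. The remaining 291 rows carried 289 symbols, because Dlx6os1 and Tmem147os each had 2 rows. They were paired with 250 partner genes, the genes whose symbol they extend, all of which were protein-coding. Every os gene lay on the strand opposite to its partner in the GENCODE M21 annotation of the mm10 genome. That annotation classed 249 of the os genes as antisense, 14 as processed transcripts, 11 as lincRNA and 11 as protein-coding.

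An opposite-strand transcript is made from the same stretch of DNA as its partner, or from DNA next to it, but read in the other direction. Where the exons of both share bases, the RNA of one is complementary to the RNA of the other, and only the strand of a read tells which gene it came from. Antisense transcripts are commonly much less abundant than the messages they lie opposite to, and some of them are known to act on the transcription, splicing or stability of the partner.

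The RNA came from islets of NOD.hALOX12 mice, nonobese diabetic mice in which human ALOX12, encoding 12-lipoxygenase, stands in place of mouse Alox15 and remains under the mouse regulatory region. Both groups carried this replacement, which is not restricted to a cell type. Female, prediabetic mice were dosed by mouth for 4 weeks with vehicle (4 libraries) or with 30 mg/kg VLX-1005, an inhibitor of human 12-lipoxygenase (3 libraries). Handpicked, collagenase-released islets were kept overnight before RNA was extracted. Since no label ties a library to its own mouse, every p-value below reflects library-to-library spread, which may be technical in part. Bulk islet RNA cannot separate fewer cells of a type from less RNA per cell.

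The libraries held 1024586 to 1430785 counts each, and a gene at 0 in a library could have had up to 3 counts there, equal to 2.1 to 2.93 CPM, that is, counts scaled to the total of the library. These limits cover counting error only. All 12 endocrine marker genes were detected, at a summed 1169.7 to 1427 CPM under vehicle and 987 to 1738 CPM under VLX-1005. Ins2, an insulin gene, had 1205 counts over the 7 libraries, Ins1 had 721, and the glucose transporter gene Slc2a2 had 6. Of the macrophage markers, Csf1r had 2370 counts over the 7 libraries, Cd68 had 6, Lyz2 had 5 and Adgre1 had 0. The B cell list summed to 0 CPM in every vehicle library and to 0 to 4.66 CPM under VLX-1005, all of it from the 7 counts of Cd79a, with Ms4a1 at 0, and the stellate cell and fibroblast markers summed to 0.833 to 3.08 CPM under vehicle and 4.09 to 6.99 CPM under VLX-1005 with Acta2 at 0. Rows annotated as ribosomal RNA took 1.69% to 2.11% of counts under vehicle and 2.55%, 3.14% and 2.15% in VLX-1005 replicates 1 to 3, so this share moved with the group. The kit marked strand, and how the counting treated strand is not stated. If the counting took the opposite strand, counts in bases shared by an os gene and its partner would be messages of the partner, so os and partner counts are given here as the rows of the table hold them.

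The pairing of an os gene with its partner is a property of the sequence, shown here for 3 of the os genes with the most counts and for the pair of os genes that passed the test between treatments. Each stretch is part of an exon of the os gene, written 5′ to 3′ on the strand of the os gene, and its reverse complement was found in a transcript of the partner within a coding exon. The positions on mm10 are chr11:88935856-88935951 for Scpep1os, chr12:3249790-3249870 for Rab10os and chr7:89510740-89510859 for Prss23os, all on the plus strand, and chr11:96346277-96346396 for Hoxb3os and chr16:55974062-55974181 for Zbtb11os1, both on the minus strand. Capitals mark the bases complementary to the start codon of the partner, and stretches without capitals do not hold it.
Scpep1os: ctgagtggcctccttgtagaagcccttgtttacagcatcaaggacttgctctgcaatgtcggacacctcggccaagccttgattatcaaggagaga
Rab10os: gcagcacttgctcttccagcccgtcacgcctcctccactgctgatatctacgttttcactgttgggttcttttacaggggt
Prss23os: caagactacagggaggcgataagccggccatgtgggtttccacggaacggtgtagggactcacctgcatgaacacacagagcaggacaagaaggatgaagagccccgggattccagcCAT
Hoxb3os: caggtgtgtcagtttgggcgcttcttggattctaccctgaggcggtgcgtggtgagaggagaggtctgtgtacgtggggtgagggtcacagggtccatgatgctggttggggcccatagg
Zbtb11os1: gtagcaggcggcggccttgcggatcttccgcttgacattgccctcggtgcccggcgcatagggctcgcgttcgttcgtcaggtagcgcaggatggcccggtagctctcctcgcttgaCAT
In all 5 cases a read of this stretch belongs to the os gene on one strand and to the message of the partner on the other.

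The first question was how many os genes were counted at all. No count was present in any library for 99 of the 291, and 57 had 1 to 9 counts in all. A minimum of 10 counts in at least 3 libraries was met by 102 os genes, or 35.1%, against 4306 rows, or 8.89%, of the whole table. The 102 had 56 to 13286 counts over the 7 libraries, with a median of 564. The 5 os genes that met the minimum in exactly 3 libraries were Mxra8os, Phf2os1, Kcnmb4os2, Tbx3os1 and Efhd1os, with 70, 68, 63, 57 and 56 counts. Just outside it, with 10 counts in 2 libraries, lay Nphs1os, Mecomos and Irx3os, with 42, 42 and 41 counts.

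Whether an os gene was counted went with its position against the partner. In 159 pairs the exons of the os gene and of its partner shared bases. Of these, 99 (62.3%) met the minimum and 14 were at 0, with a median of 148 counts over all 159 and a median of 130 counts per kb of exon. In the other 132 pairs no exon base was shared, 3 os genes met the minimum and 85 were at 0, with a median of 0 counts and of 0 counts per kb. Both kinds together held 154090 counts, and the 159 overlapping os genes had 95.9% of them. The plot of counts by position shows the separation between these classes.

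**Figure D1:**
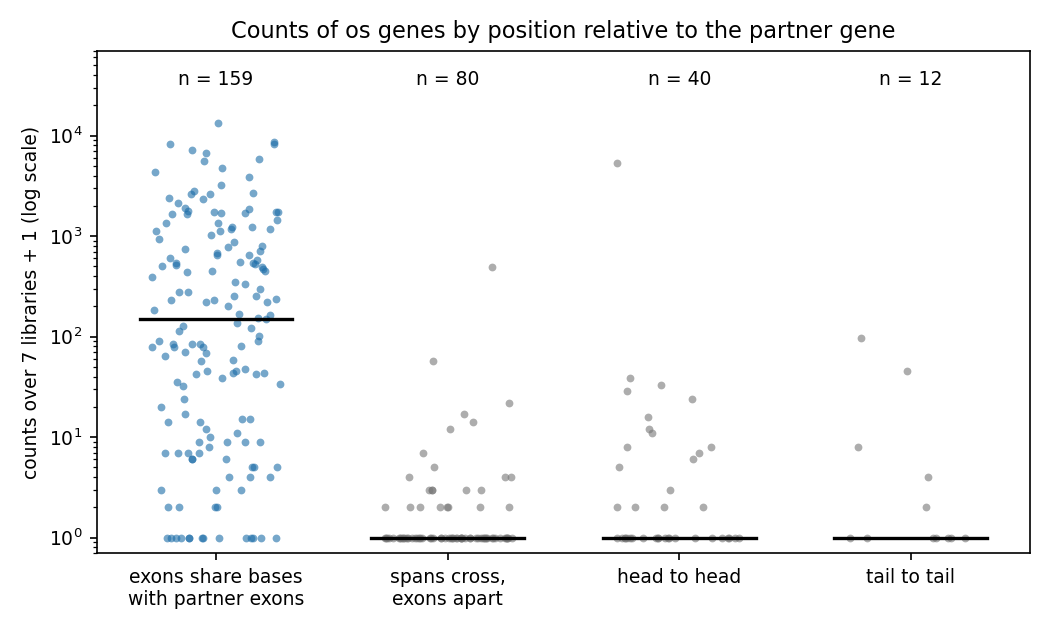
Counts of each of the 291 os genes summed over 7 libraries, plus 1 on a log scale, by position relative to the partner gene. Each point is 1 os gene and the horizontal lines are medians. The 159 os genes whose exons share bases with partner exons have a median of 148 counts, and the medians of the 80 with crossing spans, the 40 head to head and the 12 tail to tail are 0.

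The 132 os genes apart from their partner's exons fell into 3 arrangements. In 80 pairs the spans crossed but the exons did not, as when an os gene lies in an intron, and 1 of these met the minimum. In 40 pairs the genes stood head to head, with their starts next to each other and transcription running outward, and 1 met it. In 12 pairs they stood tail to tail, and again 1 met it. Brip1os, head to head with the DNA helicase gene Brip1, had 5368 counts, and its exons share 800 bases with those of Med13, a Mediator subunit gene on the other strand. Fbxl12os, tail to tail with the F-box gene Fbxl12, had 95 counts and shares 1251 exon bases with Gm26521. Slc6a19os, whose span crosses part of that of the neutral amino acid transporter gene Slc6a19, had 493 counts. It was the single os gene over the minimum with no opposite exon, among 124 such os genes (0.806%). Over the whole table, rows with an exon opposite another gene met the minimum in 3463 of 8460 cases (40.9%), and rows without one in 843 of 39980 (2.11%).

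Partners with several os genes gave a comparison within 1 locus. Of 31 partners with at least 2 os genes, 13 had both an overlapping and a non-overlapping one. In 12 of these 13, every overlapping os gene had more counts than every non-overlapping one, also per kb of exon, and in the thirteenth, Dlx6, all were at 0. Some of the 12 rest on few counts. At Far2, Sox5, Plxna4 and Fhad1 the overlapping os gene had 1, 6, 38 and 41 counts, under the minimum, against 0. At Ube4b, a ubiquitin chain assembly factor gene, Ube4bos1 had 820, 836, 749 and 766 counts in vehicle replicates 1 to 4 and 1084, 639 and 903 in VLX-1005 replicates 1 to 3. Ube4bos3, also overlapping, had 1714 counts in all, while Ube4bos2, which lies in the same gene without touching its exons, had 1. At Rapgef4, which encodes the cAMP sensor Epac2 used in insulin secretion, Rapgef4os2 had 2363 counts, Rapgef4os3 had 21 and Rapgef4os1 had 1. Rsf1os2, opposite a chromatin remodelling gene, had 2811 counts against 2 for Rsf1os1. The plot of os genes of the same partner shows the 13 loci.

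**Figure D2:**
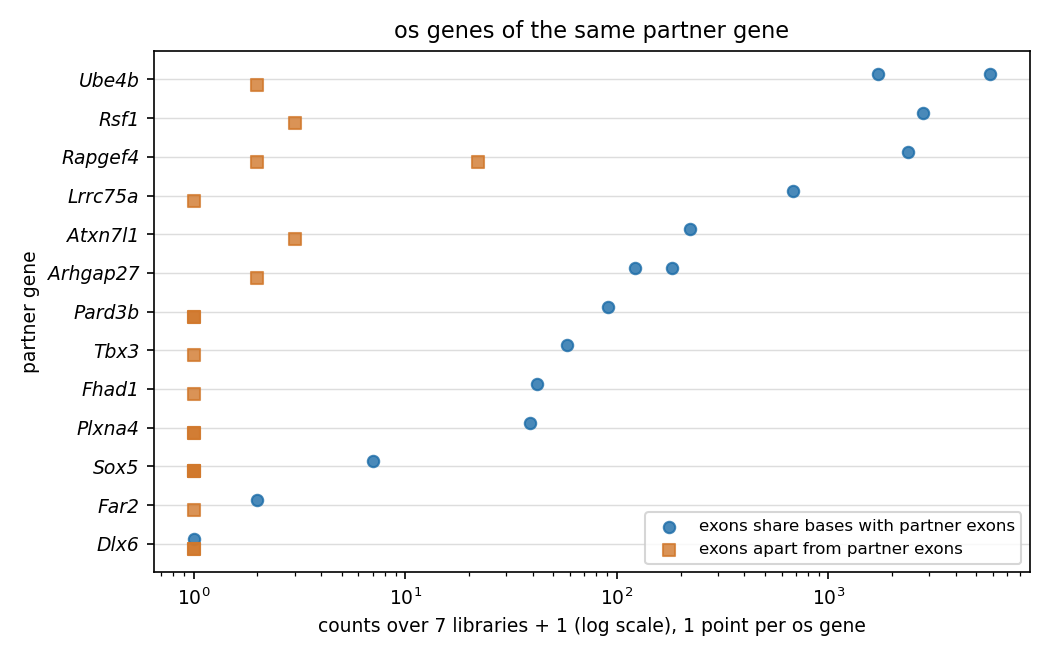
Counts of single os genes, summed over 7 libraries plus 1 on a log scale, at the 13 partner genes (y axis) that have both kinds. Circles are os genes whose exons share bases with partner exons and squares are those without. Circles lie right of squares at 12 partners, and at Dlx6 all are at 0.

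The length of the shared stretch varied widely. Among the 99 overlapping os genes over the minimum it had a median of 261 bases, from 6 bases for Aknaos to 3255 bases for Zfhx2os. Aknaos still had 528 counts and Zfhx2os had 1362. The 60 overlapping os genes under the minimum shared a median of 161 bases. The shared stretch reached a coding exon of the partner in 74 of the 99 (74.7%) and in 33 of the 60 (55.0%). The partner was the only gene opposite in 79 of the 99, and in 10 another gene shared a longer stretch, as with Tomm6os, which shares 219 bases with Tomm6 and 1221 with Prickle4.

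Counts were concentrated on few os genes: the 12 with the most held 53.3% of all os counts. Tomm6os, named for a subunit of the mitochondrial import pore, had the most, at 1786, 2104, 1627 and 2181 counts under vehicle and 2081, 1648 and 1859 under VLX-1005. The Tomm6 row itself had 1 to 5 counts in each library. Rab10os, opposite a gene for a small GTPase of vesicle transport, had 8648 counts against 588 for Rab10. Prss23os and Scpep1os, opposite a serine protease gene and a serine carboxypeptidase gene, had 8318 and 8231 counts against 2 and 7 for the partner rows. As counted, the os row was the larger at each of these loci, by counts and by counts per kb, and with the strand setting unknown RNA of the os gene and of its partner cannot be told apart there.

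The next of the 12 showed the same order. Igf2os had 7126 counts against 2 for the growth factor gene Igf2, and its longest shared stretch, 1142 bases, was with Gm49394. Rbm3os had 6784 against 44 for Rbm3, a cold-inducible RNA-binding protein gene. Ube4bos1 had 5797 against 43, Grin1os 5646 against 10 for the gene of the obligatory NMDA receptor subunit, and Brip1os 5368 against 1. Ino80dos, opposite a chromatin remodelling subunit gene, had 4716 against 121. Fam219aos had 4326 against 18, and Junos had 3839 against 18 for the AP-1 transcription factor gene Jun.

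Over the 102 os genes that met the minimum, the os row had more counts than its partner row in all 7 libraries for 85, the partner row in all 7 for 6, and neither in all 7 for 11. Per kb of exon, summed over libraries, the os row was the higher for 99 and the partner row for 3. Together the 102 os rows held 153000 counts and their distinct partner rows 20193. In 13 cases the partner row was at 0 in every library. Under the opposite strand setting the os and partner labels of counts in shared bases would swap, so this order is one of rows and not of antisense RNA against message. The plot of os rows against partner rows places most pairs far above the line of equal counts.

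**Figure D3:**
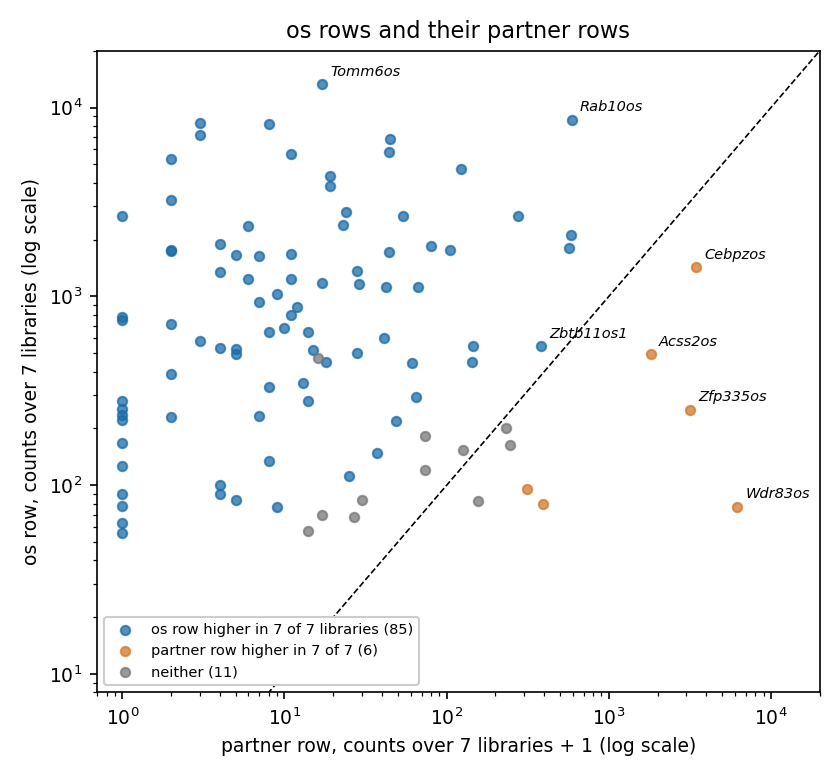
Counts of the 102 os genes over the minimum (y axis) against their partner rows plus 1 (x axis), both summed over 7 libraries on log scales. Colours give in how many libraries each row was the higher and the dashed line marks equal counts. The os row was higher in 7 of 7 libraries for 85 pairs and the partner row for 6.

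The 6 reversed pairs were Cebpzos, Acss2os, Zfp335os, Fbxl12os, Lppos and Wdr83os. Wdr83os is one of the os genes that encode a protein, a small endoplasmic reticulum membrane protein. It had 11, 24, 6 and 13 counts under vehicle and 6, 10 and 7 under VLX-1005, while the Wdr83 row had 940, 975, 874 and 1010 under vehicle and 853, 597 and 919 under VLX-1005. Wdr83 shares 539 exon bases with Wdr83os. In the Cebpz pair, where both genes encode proteins, Cebpzos had 1434 counts and Cebpz, a CCAAT-binding factor gene, had 3449, although per kb the os row was the higher (1270 against 740). Zfp335os had 251 counts against 3181 for the zinc finger gene Zfp335, whose exons also share 1107 bases with Pcif1.

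Partner rows met the minimum of 10 counts in 3 libraries in 46 of 250 cases (18.4%). Of these 46, 38 had an exon opposite some gene. The rate was 38 of 163 partners with an opposite exon (23.3%) and 8 of 87 without (9.2%). Pax6, the endocrine transcription factor gene, was a partner over the minimum without an opposite exon, at 269, 482, 226 and 444 counts under vehicle and 491, 302 and 419 under VLX-1005. Pax6os1, whose exons lie apart from those of Pax6, had 11 counts in all. Among these partners the rows with many counts were thus mostly, but not always, opposite another gene.

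The os genes were also grouped by the class of their partner. Of 31 os genes whose partner symbol had a listed prefix of developmental transcription factors, outside the islet list, 19 were at 0 and 4 met the minimum. Of 5 os genes of islet transcription factors, 1 met it, Ptf1aos, with 1731 counts. Exon bases were shared with the partner by 17 of the 31 and 3 of the 5, so an overlap with the partner did not always come with counts. Of the 5 os genes of zinc finger genes 3 met the minimum, of the 11 of channel and carrier genes 4, and of the 239 others 90. The others include os genes of developmental transcription factors without a listed prefix. Among these, Prox1os and Prox2os met the minimum and Irx3os did not.

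Ptf1a directs the exocrine fate of the pancreas and stays on in acinar cells. Ptf1aos had 150, 294, 368 and 96 counts under vehicle and 207, 348 and 268 under VLX-1005. Both groups spanned a wide range and overlapped, with a log2 fold change of 0.25 ± 0.55 (SE, adjusted p = 0.856). The 7 acinar markers summed to 48.3, 92.3, 91.2 and 32.1 CPM in vehicle replicates 1 to 4 and 29.3, 109.9 and 73.7 CPM in VLX-1005 replicates 1 to 3. The library with the lowest Ptf1aos count among vehicle replicates was also the one with the lowest acinar sum, and the part of acinar tissue in these values was not tested. Igf2os varied as widely, at 1198, 856, 1389 and 737 counts under vehicle and 565, 1933 and 448 under VLX-1005.

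The comparison of treatments asked which os genes differed between VLX-1005 and vehicle. Together the os genes took 1.83%, 1.74%, 1.71% and 1.65% of counts in vehicle replicates 1 to 4 and 1.72%, 1.99% and 1.84% in VLX-1005 replicates 1 to 3. The mean was 1.73% ± 0.0734 (SD, n = 4) with vehicle and 1.85% ± 0.134 (SD, n = 3) with VLX-1005, and the ranges overlapped. Of the 291 os genes, 101 passed the low-count filter of the edgeR fit. Phf2os1 met the minimum of 10 counts in 3 libraries and did not pass that filter.

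The quasi-likelihood test of edgeR, two-sided and adjusted by Benjamini-Hochberg over 4218 genes, called 2 of the 101 tested os genes (1.98%) at 0.05, Hoxb3os and Zbtb11os1, both higher with VLX-1005. Over all genes tested it called 2.37%, so the share among os genes was near the background. No os gene was called lower, where 5 were lower at an unadjusted p below 0.05 and DESeq2 called 1. Higher calls made up 2.35% of all genes tested and lower calls 0.0237%. At an unadjusted p below 0.05 stood 24 os genes (23.8%), 19 higher and 5 lower, against 18.0% of all genes (12.0% higher and 5.97% lower). Scaled levels separated without overlap in 22 os genes (21.8%), 15 with VLX-1005 above and 7 below, against 17.6% of all genes (9.48% above and 8.16% below).

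**Figure D4:**
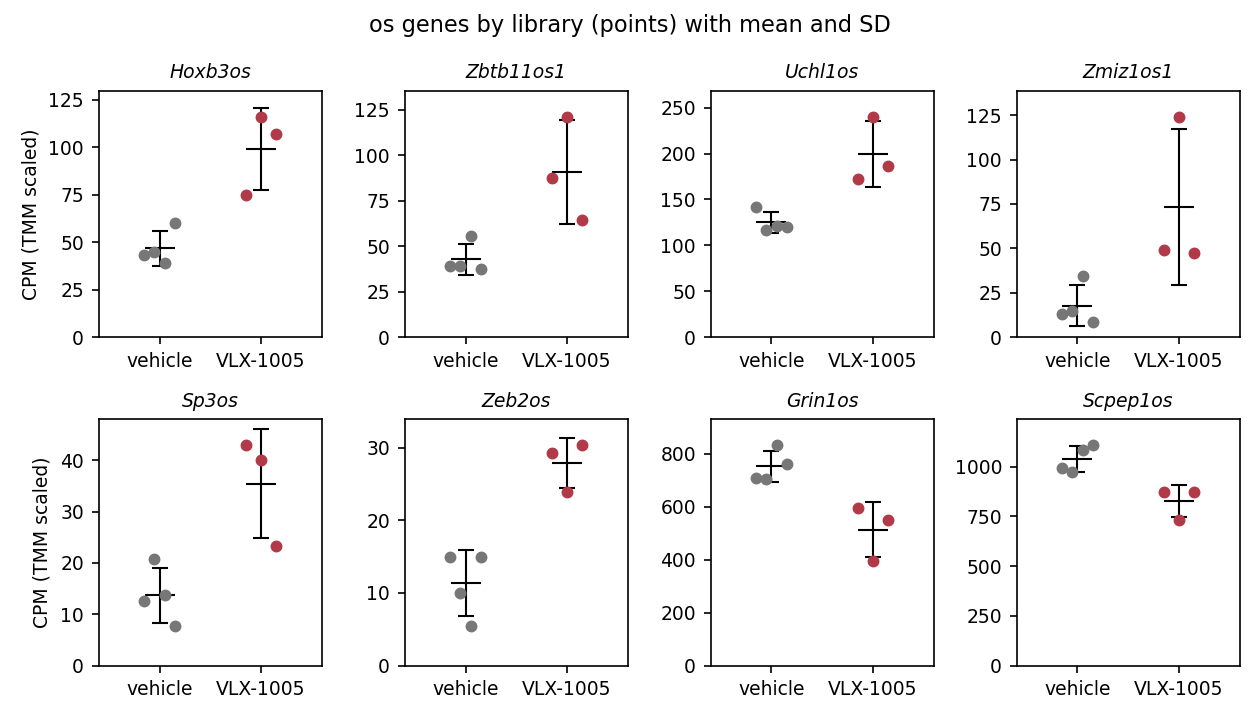
Scaled CPM per library of 8 os genes: those of smallest p in the higher direction, and Grin1os and Scpep1os in the lower. Points are libraries (4 vehicle, 3 VLX-1005) and bars are mean and SD; every y axis starts at 0. In all 8 panels the groups do not overlap, and Hoxb3os and Zbtb11os1 alone had an adjusted p below 0.05 in the edgeR fit.

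Hoxb3os (mm10 chromosome 11, 96343072 to 96354691, minus strand) lies opposite Hoxb3, a homeobox gene of body patterning, and shares 2250 exon bases with it. It had 52, 58, 43 and 77 counts under vehicle and 110, 121 and 138 under VLX-1005. All 3 VLX-1005 libraries lay above all 4 vehicle libraries, also after scaling, at 46.8 ± 9.22 CPM (SD, n = 4) against 99.2 ± 21.5 CPM (SD, n = 3). The log2 fold change in the edgeR fit was 1.07 ± 0.22 (SE) with an adjusted p of 0.031. The Hoxb3 row was too low to be tested, at 3 to 11 counts under vehicle and 3 to 9 under VLX-1005.

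Zbtb11os1 (chromosome 16, 55973268 to 55974617, minus strand) starts 734 bases from the start of Zbtb11, a zinc finger transcription factor gene, and covers its start codon. The counts were 47, 51, 61 and 48 under vehicle and 128, 127 and 83 under VLX-1005, without overlap between the groups. Scaled levels were 42.9 ± 8.52 CPM (SD, n = 4) and 91.0 ± 28.7 CPM (SD, n = 3), and the log2 fold change in the edgeR fit was 1.08 ± 0.25 (SE, adjusted p = 0.0407). Zbtb11 itself was the 1 partner row called among 44 tested (2.27%, against 2.37% of all genes tested). It had 31, 37, 34 and 33 counts under vehicle and 90, 104 and 54 under VLX-1005. Its log2 fold change was 1.27 ± 0.29 (SE, adjusted p = 0.0395). Both rows of this locus were thus higher with VLX-1005.

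Neither call held in every fit, and other fits called more os genes. On the same genes DESeq2 called 10: Hoxb3os, Zbtb11os1, Uchl1os, Zmiz1os1, Sp3os, Zeb2os, Arhgap27os2, Galnt6os and Has2os higher, and Grin1os lower. Over all genes tested DESeq2 called 197, where the main edgeR fit called 100. Without vehicle replicate 1, 2 or 4, or without VLX-1005 replicate 2, no os gene was called, and without vehicle replicate 3 the 1 call was Zmiz1os1. Without VLX-1005 replicate 1, Hoxb3os and Uchl1os were called, and without VLX-1005 replicate 3 there were 6 calls, Hoxb3os and Zbtb11os1 among them. Over all genes tested, the fits without vehicle replicates 1 to 4 made 14, 23, 16 and 18 calls. Those without VLX-1005 replicates 1 to 3 made 104, 29 and 203. With the ribosomal RNA share of each library as a covariate no os gene was called, nor any other gene tested. With this covariate 8 of 101 tested os genes had an unadjusted p below 0.05, and without 1 library 14 of 103 to 26 of 102 did. The share of all genes tested at that level is given here for the main fit alone (18.0%). In each fit with the covariate or without 1 library, Hoxb3os and Zbtb11os1 stayed higher with VLX-1005.

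The os genes next by p in the higher direction missed the threshold. Uchl1os, opposite the gene of a deubiquitinating enzyme abundant in neurons and endocrine cells, had 171, 152, 133 and 154 counts under vehicle and 252, 251 and 239 under VLX-1005, without overlap. Its log2 fold change was 0.66 ± 0.16 (SE, edgeR adjusted p = 0.0535), and the Uchl1 row had 3 counts in all. Zmiz1os1, opposite a transcriptional coactivator gene, had the highest estimate of all tested os genes. It had 16, 19, 38 and 11 counts under vehicle and 72, 130 and 61 under VLX-1005, a log2 fold change of 2.05 ± 0.48 (SE, edgeR adjusted p = 0.0571). VLX-1005 replicate 2 was well above the other libraries of its group here.

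Sp3os and Zeb2os lie opposite the genes of the transcription factors Sp3 and Zeb2. Sp3os had 15, 27, 15 and 10 counts under vehicle and 63, 42 and 30 under VLX-1005 (a log2 change of 1.36 ± 0.35, edgeR adjusted p = 0.0693). Zeb2os had 18, 13, 6 and 19 under vehicle and 43, 25 and 39 under VLX-1005 (1.28 ± 0.35, edgeR adjusted p = 0.0797). In both, every VLX-1005 library was above every vehicle library, and neither passed the threshold. The partner rows had estimates of 0.66 ± 0.36 for Sp3 (edgeR adjusted p = 0.362) and 1.19 ± 0.32 for Zeb2 (edgeR adjusted p = 0.0767).

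In the lower direction the smallest p belonged to Grin1os, with 851, 916, 911 and 974 counts under vehicle and 874, 413 and 707 under VLX-1005. Scaled to depth, the groups did not overlap, at 752 ± 58.7 CPM (SD, n = 4) against 513 ± 105 CPM (SD, n = 3), with a log2 fold change of -0.55 ± 0.14 (SE, edgeR adjusted p = 0.0705). VLX-1005 replicate 2 was the lowest library, at 395 CPM. Scpep1os had 1038 ± 65.3 CPM under vehicle (SD, n = 4) and 827 ± 81.0 CPM under VLX-1005 (SD, n = 3), again without overlap, with a log2 fold change of -0.33 ± 0.11 (SE, edgeR adjusted p = 0.161). Here too VLX-1005 replicate 2 was lowest, at 733 CPM.

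The other os genes with small p in this direction were lower in level or smaller in difference. Kcnab3os, opposite a potassium channel beta subunit gene, had 21.4 ± 2.14 CPM under vehicle and 12.6 ± 1.86 CPM under VLX-1005 (a log2 change of -0.76 ± 0.30, edgeR adjusted p = 0.2). Mypopos had 143 ± 17.3 CPM and 111 ± 5.99 CPM (-0.37 ± 0.16, edgeR adjusted p = 0.24). In both the groups did not overlap. Prkag2os2, opposite an AMP-activated kinase subunit gene, had 135 ± 14.9 CPM and 94.9 ± 26.2 CPM (-0.50 ± 0.21, edgeR adjusted p = 0.224), and Rbm3os 837 ± 44.3 CPM and 704 ± 109.7 CPM (-0.25 ± 0.12, edgeR adjusted p = 0.316). For these 2 the groups overlapped, and without VLX-1005 replicate 2 their estimates were -0.29 and -0.13.

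The remaining os genes of the 12 with the most counts did not pass either. Prss23os had 871, 1109, 616 and 1090 counts under vehicle and 1236, 1094 and 2302 under VLX-1005, with VLX-1005 replicate 3 far above the rest and a log2 fold change of 0.71 ± 0.25 (SE, edgeR adjusted p = 0.195). Junos had an estimate of 0.49 ± 0.23 (edgeR adjusted p = 0.295). The estimates of Tomm6os, Rab10os, Igf2os, Ube4bos1, Brip1os, Ino80dos and Fam219aos lay between -0.13 and 0.07, with SE of 0.10 to 0.14 except for Igf2os at 0.68. Of the os genes without exon overlap with the partner, Slc6a19os had -0.37 ± 0.27 (edgeR adjusted p = 0.504) and Fbxl12os 0.54 ± 0.42 (edgeR adjusted p = 0.527), both with overlapping groups. Single libraries moved several of these estimates: without VLX-1005 replicate 2 that of Junos was 0.14 and that of Fbxl12os 0.13, without VLX-1005 replicate 3 that of Prss23os was 0.32, and Slc6a19os had -0.75 without VLX-1005 replicate 1, -0.17 without VLX-1005 replicate 3 and -0.21 without vehicle replicate 3.

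**Figure D5:**
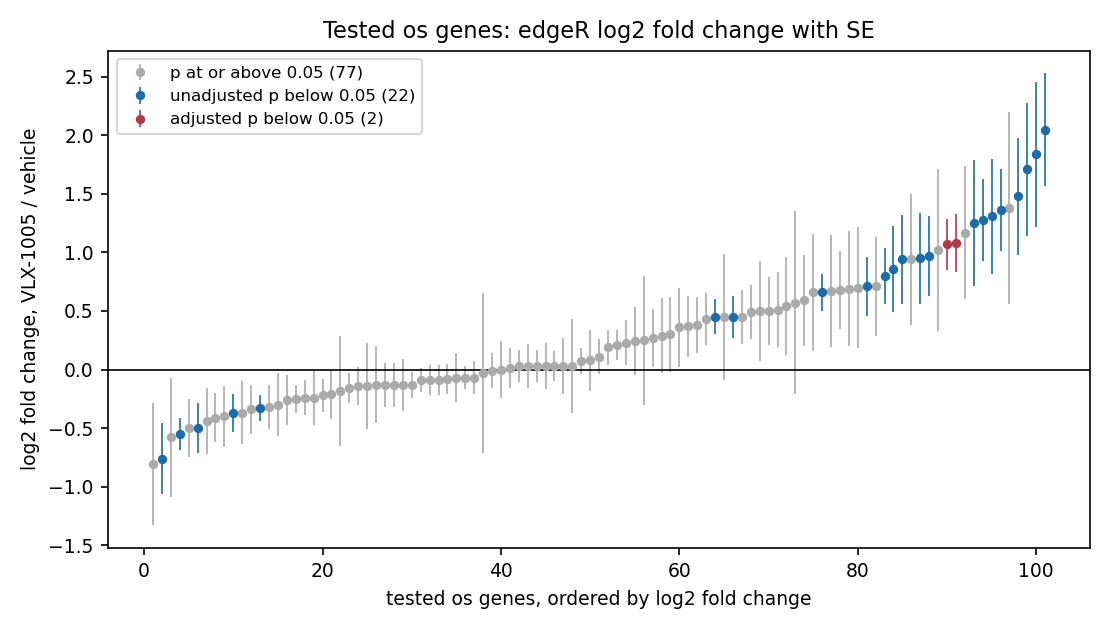
Log2 fold change (VLX-1005 over vehicle, y axis) with SE from edgeR for the 101 tested os genes, in order of the estimate (x axis). The 2 os genes with adjusted p below 0.05 and 22 more with unadjusted p below 0.05 are coloured. Estimates run from -0.81 to 2.05, and the 13 beyond a 2-fold change are all on the higher side. Of all genes tested, 2.35% were called higher and 0.0237% lower.

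Over the 101 tested os genes the log2 fold change had a median of 0.11 and ran from -0.81 to 2.05, and 61 estimates (60.4%) were above 0. Over all genes tested the median was -0.01 and 49.1% were above 0. All 13 estimates beyond a 2-fold change were higher with VLX-1005. The number of all genes tested beyond 2-fold is not given here, and of these genes 2.35% were called higher and 0.0237% lower. The lean to higher values lay with the os genes of few counts. The 33 at 6.72 to 31.5 CPM had a median of 0.59, the 34 at 33.5 to 142 CPM had 0.22, and the 34 at 142 CPM or more had -0.02. All tested genes in the same ranges had medians of 0.07, 0.02 and -0.09. These counts and medians describe os genes that passed a filter which 3 libraries, as many as the VLX-1005 group has, are enough to pass. The median of 101 os genes, taken per library against the vehicle mean on the log2 scale, was 0.06, 0.30 and 0.09 in VLX-1005 replicates 1 to 3, and -0.03 to 0.02 in the vehicle libraries. VLX-1005 replicate 2, with the highest median, also had the lowest total count and the highest ribosomal RNA share, and their part in these values was not tested.

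Among the 44 partner rows tested, 6 had an unadjusted p below 0.05 (13.6%), 4 higher and 2 lower. Of all genes tested 18.0% did, 12.0% higher and 5.97% lower. The median log2 fold change was -0.08 for the partner rows and -0.01 for all genes tested. After Zbtb11 and Zeb2 came N4bp2, higher at 1.26 ± 0.42 (edgeR adjusted p = 0.161), whose opposite N4bp2os had 1.31 ± 0.49 (edgeR adjusted p = 0.195). N4bp2os had 6, 11, 5 and 7 counts under vehicle and 15, 28 and 11 under VLX-1005, and N4bp2 had 19, 8, 9 and 19 under vehicle and 42, 41 and 18 under VLX-1005. Ppp1r18 was higher at 1.45 ± 0.61 (edgeR adjusted p = 0.232). Dtnb was lower at -1.01 ± 0.33 (edgeR adjusted p = 0.152) and Wdr83 at -0.33 ± 0.11 (edgeR adjusted p = 0.169).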

How the data were processed

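The authors deposited unnormalized read counts, with 1 row for each Ensembl ID, for 4 vehicle and 3 VLX-1005 libraries, from strand-specific, poly(A)-selected TruSeq libraries run on a NovaSeq. The submitters' processing notes name Trimmomatic, FastQC, HTSeq, DESeq2 and the mm10 build, and the study's methods add HISAT2 and Galaxy. Tool versions, the annotation release and the strand option of HTSeq were not given in the sources used here. Of 48440 rows, 48058 were placed by gene ID in GENCODE release M21, and shared exon bases were measured with bedtools 2.31.1. Reads in bases shared by an os gene and its partner cannot be told apart without that setting.

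Groups, taken from the labels, were compared with the two-sided quasi-likelihood test of edgeR 4.0.16 (R 4.3.3), fitted on the whole table with TMM factors, filterByExpr, robust dispersion and treatment as the one term, which tested 4218 genes. Adjusted p-values are Benjamini-Hochberg values over these genes, log2 fold changes are VLX-1005 over vehicle ± SE, and levels are TMM-scaled CPM with SD. Every pair of libraries differed by more than counting noise (chi-square over degrees of freedom from 4.28 to 23).

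The os genes, partner classes and lists were chosen with earlier results of these data known. Named with values were called os genes, the 12 with the highest mean CPM, the 6 of smallest p in each direction, tested os genes of islet transcription factors, and up to 4 tested os genes without exon overlap with the partner. Other os genes with values in the text lie outside this rule and were picked with their values in view. Partner classes other than the islet list used symbol prefixes, so that of channels and carriers also holds Trp73os. That of developmental transcription factors lacks Prox1os, Prox2os and Irx3os, among other os genes. Alternatives were DESeq2 1.42.0, other scaling factors and filters, a replicate block, the ribosomal RNA share as a covariate and omission of each library. The values of a few genes and 1 sequence are not reported here.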

Additional observations from a re-analysis of the deposited data

Results flagged for a closer look

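Among 25 values examined, 4 had a vehicle library far from the other 3 of its group by Dixon's criterion, where chance gives about 1 in 20. Zbtb11os1 had 55.6 CPM in vehicle replicate 3 against 37.5 to 39.2 CPM in the others, which is nearer to the VLX-1005 libraries. Uchl1os had 142 CPM in vehicle replicate 1 against 117 to 121 CPM. Rbm3os had 771 CPM in vehicle replicate 4 against 854 to 863 CPM, and Kcnab3os had 18.2 CPM in vehicle replicate 3 against 22.3 to 22.7 CPM.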

How the results depend on the processing

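The count of 2 called os genes changed with most choices. DESeq2 called 10 on the same 101 os genes. Without a filter it called 7 of 192 (of the 10, not Zeb2os, Arhgap27os2 or Has2os). edgeR called 11 of 192 without a filter (the 10 without Zeb2os, with Bach2os and Prss23os). With a filter of 1 CPM in 3 libraries edgeR called 5 of 134 (with Uchl1os, Sp3os and Grin1os). It called 4 of 101 with library totals only (with Uchl1os and Zmiz1os1), and 0 of 101 with the ribosomal RNA share as a covariate. Omission of single libraries gave 0 to 6 calls: 0 without vehicle replicate 1, 2 or 4 or VLX-1005 replicate 2, 1 without vehicle replicate 3 and 6 without VLX-1005 replicate 3. Calls over all genes tested numbered 100 in the main fit, 197 with DESeq2 and 179 with DESeq2 without a filter. With edgeR they numbered 263 without a filter, 164 with 1 CPM in 3 libraries, 116 with library totals and 0 with the covariate. With 1 library left out they ran from 14 (without vehicle replicate 1) to 203 (without VLX-1005 replicate 3). The number of os genes at an unadjusted p below 0.05 was 8 of 101 tested with the covariate. It was 14 of 103 without VLX-1005 replicate 2 to 26 of 102 without VLX-1005 replicate 1. The share of all genes tested at that level is given for the main fit alone. Hoxb3os lost its call in 7 of 17 settings (log2 fold change 0.95 to 1.24, adjusted p 0.000858 to 0.602) and Zbtb11os1 in 8 (0.49 to 1.26, adjusted p 0.00147 to 0.825), and both stayed higher with VLX-1005 in all 17. The median log2 fold change of tested os genes was 0.20 under DESeq2 without a filter, 0.22 under edgeR without a filter, where more os genes of few counts enter, and 0.20 with 1 CPM in 3 libraries. It was 0.09 to 0.20 when 1 library was left out, with 0.20 without vehicle replicate 3. The difference in the os share of counts, 0.117 percentage points, ranged from 0.0468 without VLX-1005 replicate 2 to 0.18 without VLX-1005 replicate 1.

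The replicate number as a block gave 0 called os genes and 19 calls over all genes tested, with 19 of 101 os genes at an unadjusted p below 0.05. No label says that the numbers pair the libraries. Deviations of same-numbered vehicle and VLX-1005 libraries correlated at -0.03, -0.02 and 0.09, and those of differently numbered ones at -0.11 to 0.11. Of 408 values for 24 named os genes, 15 changed sign, all of os genes without a call, and the cause was not tested. Igf2os had a log2 fold change of 0.02 with library totals and of -1.25 to 0.33 when 1 library was left out, above 0 without vehicle replicate 1 (0.04) or 3 (0.21) or VLX-1005 replicate 1 (0.31) or 3 (0.33) and -1.25 without VLX-1005 replicate 2. Brip1os had -0.01 with upper quartile factors, -0.02 with the replicate block, and -0.03 (without vehicle replicate 4) to 0.17 (without vehicle replicate 1) with 1 library left out. Ptf1aos had -0.16 with the covariate, and -0.12 (without VLX-1005 replicate 2) to 0.67 (without vehicle replicate 3). Fam219aos had 0.15 with the covariate, and -0.18 (without VLX-1005 replicate 1) to 0.06 (without VLX-1005 replicate 2). Fbxl12os had -0.33 with the covariate. At this depth, an os gene at 0 in a library could have been present there at up to 2.1 to 2.93 CPM.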

Other observations

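The tested os genes with shared exons also differed in where they start. Of those whose start lies within 2000 bases of the partner's start, 28 were tested, 22 were higher with VLX-1005 and the median log2 fold change was 0.45; 7 had an unadjusted p below 0.05, all higher. Of those with a start farther away, 70 were tested, 37 were higher and the median was 0.03; 17 had an unadjusted p below 0.05, 12 higher and 5 lower. The distance of 2000 bases was chosen after the values were seen, and the difference was not tested. Over all os genes with shared exons, tested or not, the nearer ones had a median of 63 counts and the farther ones 226, and higher estimates were more frequent among tested os genes of few counts. Of all genes tested, 18.0% had an unadjusted p below 0.05.

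Antisense genes without an os name gave a second set of rows. Of 2170 other rows annotated as antisense, 803 (37.0%) had 10 counts in 3 libraries, against 35.1% of os genes. In the edgeR fit 796 were tested, 38 were called (4.77%) and 201 had an unadjusted p below 0.05 (25.3%), with a median log2 fold change of 0.08. Over all genes tested these values were 2.37%, 18.0% and -0.01. Rows named in the older style with as in place of os numbered 3, and none was tested.

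VLX-1005 replicate 2 was the highest of the 7 libraries for 39 of the 101 tested os genes (38.6%) and for 27.9% of all genes tested. It was the lowest for 21 os genes (20.8%) and for 26.8% of all genes tested. Vehicle replicate 3 was the lowest for 21 os genes (20.8%) and for 20.8% of all genes tested. The 3 os genes that follow were chosen after their values were seen. Gimap1os, opposite a GTPase gene of lymphocytes, had 48, 55, 0 and 59 counts under vehicle and 96, 138 and 76 under VLX-1005. Slfn5os, opposite an interferon-induced Schlafen gene, had 44, 92, 11 and 56 counts under vehicle and 95, 163 and 74 under VLX-1005. Dhx58os, opposite the gene of the viral RNA sensor LGP2, had 111, 141, 41 and 93 under vehicle and 142, 158 and 113 under VLX-1005. Vehicle replicate 3 was lowest in all 3, and their adjusted p-values were 0.43, 0.333 and 0.43 in the edgeR fit. Other rows had another order in vehicle replicates 1 to 4: Bach2os had 14, 38, 16 and 12 counts and Adap2os 27, 13, 25 and 30. The macrophage markers summed to 245, 272, 315 and 244 CPM in the same libraries.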
